A study of Mus musculus with 4 samples.

Results

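Elastic fibres give connective tissue its recoil, and the genes described here encode their parts. The 10 genes were Efemp1, Efemp2, Fbln1, Fbln2, Fbln5, Eln, Fbn1, Fbn2, Mfap4 and Mfap5, and they were read by 13 probes of the 41174 gene probes on the array, which carried 27745 gene names. Fbln1, Fbln5 and Fbn1 had 2 probes each, and the other genes had 1. The set was chosen by a measured value, since it was assembled around Efemp1, whose signal was far lower in the RNA labelled CycG2-/- than in its wild-type (WT) partner. That contrast is therefore given as a description for every gene of the set.

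An elastic fibre has a core of cross-linked elastin laid on a scaffold of microfibrils, which are built from fibrillins. Fibulins and the fibulin-related EFEMP proteins bind elastin, fibrillin and the lysyl oxidase that cross-links the core, and microfibril-associated glycoproteins decorate the scaffold. Fibroblasts secrete all of these parts, and microfibrils also hold latent TGF-beta in the matrix.

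The RNA came from cultures of fibroblasts grown from mouse embryos (MEFs), taken in logarithmic growth and without treatment. CycG1-/- cells (G1KO), which lack cyclin G1, were set against CycG1+/+ cells, and CycG2-/- cells (G2KO), labelled as lacking cyclin G2, against CycG2+/+ cells. The strain was recorded as C57BL/6J for every RNA, although the source name of the G2KO pair reads C57BL/7J. In the G1KO mice a neomycin cassette had replaced the coding exons of Ccng1 in every cell of the animal. How many embryos each culture came from was not given in the sources used here. Each comparison had 1 knockout culture and 1 WT culture, hybridised together on 2 arrays of 2 colours with the dyes exchanged, so 4 RNAs were read on 4 arrays. There was 1 replicate per genotype, no p-value could be given, and ± values are the SD between the 2 arrays, which is technical.

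The check of the cultures set limits on the comparison. Ccng1 was lower in G1KO by a log2 ratio of -6.67 ± 0.13, whereas the Ccng2 probe gave 0.09 ± 0.27 in the G2KO pair. In that pair Ccng1 was called higher at both of its probes, at 2.67 ± 0.03 and 2.49. The Ccng2 probe thus did not mark the knockout and directions there rest on the label alone. Whether that probe lies in the deleted part of Ccng2 was not given in the sources used here, nor was the way Ccng2 had been disrupted. Both knockout RNAs were higher than their WT for Xist (7.54 ± 0.43 and 7.24 ± 0.46), and the Y-linked gene Eif2s3y was dim on both arrays of each knockout RNA, at least 82.3-fold and 51.2-fold lower. Genotype and sex-linked transcripts therefore moved together in both pairs and cannot be told apart. Between 25366 and 27757 of 43379 gene spots were well above background in a channel, and no spot was saturated. The typical SD between arrays on the log2 scale was 0.131 for the G1KO arrays and 0.129 for the G2KO arrays.

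A probe was tested where the scanner flagged it as well above background on both arrays of a pair for knockout or WT. It was called where both arrays gave at least a 2-fold ratio one way. Of the 13 probes, 11 were tested in each comparison. Neither Eln nor the second Fbln5 probe was tested in either pair. In G1KO, 4 probes of 3 genes were called higher (Fbln1, Fbn2 and Mfap4), where 1.99% of all tested probes were, and 1 probe was called lower (Fbln5), where 3.80% were. In the RNA labelled G2KO, 5 probes of 5 genes were called lower (Efemp1, Fbln2, Fbn1, Fbn2 and Mfap4) and 0 higher, against 4.06% and 2.31% of all tested probes. Because the set was picked in the second contrast, nothing is read from its count there.

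**Figure D1:**
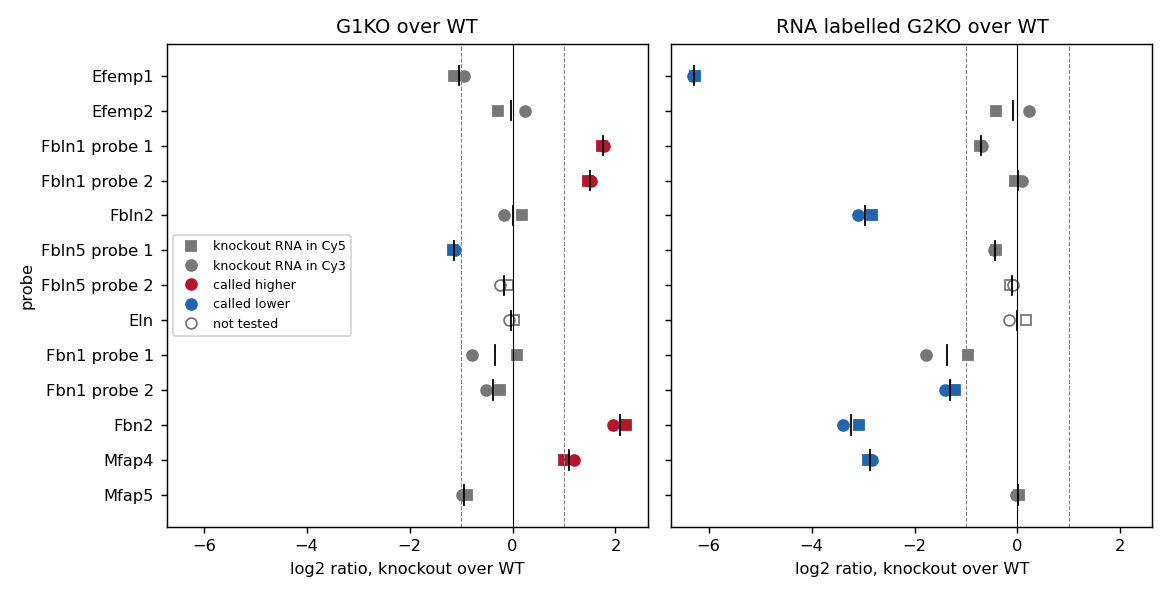
Log2 ratio of knockout over WT for each of the 13 probes on each array, with squares for knockout RNA in Cy5, circles for knockout RNA in Cy3, a black bar at the mean and dashed lines at 2-fold. Efemp1 lies at -6.26 and -6.30 in the RNA labelled G2KO, and Fbn2 and Mfap4 lie above 0 in G1KO and below 0 in the RNA labelled G2KO.

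Efemp1 encodes fibulin-3, a secreted glycoprotein of the matrix that binds inhibitors of metalloproteinases. Its probe lies at chr11:28826538-28826597 on build mm8. Its log2 level, which is a measure of brightness after normalisation, was 15.58 in Cy3 and 15.36 in Cy5 in the WT of the G1KO pair, 14.42 and 14.43 in G1KO, 15.51 and 15.25 in the WT of the G2KO pair, and 8.95 and 9.25 in the RNA labelled G2KO. Both WT cultures were alike to within 0.11 in each dye, and the RNA labelled G2KO stood alone at the low end. The spots there were still well above background on both arrays. Their raw brightness, with the local background included, was 296 in Cy3 and 869 in Cy5 against 27571 and 55577 in its WT. The log2 ratio was -6.26 on the array with knockout RNA in Cy5 and -6.30 on the other, a mean of -6.28 ± 0.03 or 77.7-fold. In G1KO the ratios were -1.14 and -0.95, a mean of -1.05 ± 0.14, which fell just short of a call because only 1 of the arrays reached 2-fold.

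Efemp2 encodes fibulin-4, which brings lysyl oxidase to the forming fibre. Its probe was bright in all 4 RNAs, with mean log2 levels between 14.69 and 14.87, and it was not called in any contrast. The ratios were -0.29 and 0.24 for G1KO, against -0.42 and 0.23 for the RNA labelled G2KO. In both pairs the sign followed the dye rather than the genotype, so the mean ratios of -0.03 ± 0.38 and -0.09 ± 0.46 were smaller than the spread between arrays.

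Fbln2 encodes fibulin-2, which binds elastin, fibrillin and fibronectin. Its log2 level was 16.00 in Cy3 and 16.39 in Cy5 in the WT of the G1KO pair, 16.22 and 16.18 in G1KO, 15.70 and 15.49 in the WT of the G2KO pair, and 12.41 and 12.87 in the RNA labelled G2KO. As for Efemp1, the RNA labelled G2KO was the single low one, and the other 3 RNAs lay within 2-fold of each other in each dye. Its ratio was -2.83 and -3.09 in the RNA labelled G2KO, a mean of -2.96 ± 0.18 or 7.77-fold lower. In G1KO it was 0.18 and -0.17, with a mean of 0.01 ± 0.24.

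Of the members called lower in the RNA labelled G2KO, 3 had an entry in the RefSeq promoter table (GRCm38.p6). The bases before their start are shown because of that call. For Fbn1 the call was made at probe 2 but not at probe 1, and it was lost with median centring. The motifs searched on both strands were TATAAA (the TATA box), CCAAT (the box named for its letters), GGGCGG (the GC box of Sp1) and TGANTCA. The last is a looser form of the AP-1 element, TGACTCA or TGAGTCA, since N allows any base. Matches are in capitals and do not overlap in these windows.
Efemp1: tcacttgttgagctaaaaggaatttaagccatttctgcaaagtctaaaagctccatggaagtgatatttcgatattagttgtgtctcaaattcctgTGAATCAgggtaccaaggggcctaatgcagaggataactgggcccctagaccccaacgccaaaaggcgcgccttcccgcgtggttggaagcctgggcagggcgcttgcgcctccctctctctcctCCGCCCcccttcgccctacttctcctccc
Fbln2: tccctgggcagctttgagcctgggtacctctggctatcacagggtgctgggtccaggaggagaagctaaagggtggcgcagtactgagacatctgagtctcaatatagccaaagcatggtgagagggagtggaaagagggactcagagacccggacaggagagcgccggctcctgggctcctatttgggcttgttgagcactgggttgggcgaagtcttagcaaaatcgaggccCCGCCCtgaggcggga
Fbn1: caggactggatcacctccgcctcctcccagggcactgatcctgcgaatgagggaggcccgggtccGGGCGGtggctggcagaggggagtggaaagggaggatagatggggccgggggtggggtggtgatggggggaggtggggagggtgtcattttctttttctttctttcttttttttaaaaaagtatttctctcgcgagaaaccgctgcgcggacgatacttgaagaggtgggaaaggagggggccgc
The windows span 250 bases, at chr11:28852955-28853204 on the plus strand for Efemp1, chr6:91212514-91212763 on the plus strand for Fbln2 and chr2:125506439-125506688 on the minus strand for Fbn1. Each held GGGCGG once, on one strand or the other. Of all 32851 promoters of this length, 32.7% held it at least once. The Efemp1 window, alone of the 10 windows of 6 members, held TGANTCA, which 6.75% of all promoters held. The match there reads TGAATCA, with A at the centre, so it is not the AP-1 element itself. No member window held TATAAA (12.4% of all promoters), and 1 of Fbln5 held CCAAT (33.8%). The GGGCGG letters also stood in windows of Efemp2, Fbln1 and Fbln5, which were not called in the RNA labelled G2KO, so the match did not separate the members.

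Fbln1 encodes fibulin-1, a matrix and plasma glycoprotein that binds fibronectin. Its probes lie close together, at chr15:85113334-85113393 (probe 1) and chr15:85113190-85113250 (probe 2). At probe 1 the log2 level was 8.33 in Cy3 and 8.26 in Cy5 in the WT of the G1KO pair, 10.04 and 10.06 in G1KO, 10.26 and 10.18 in the WT of the G2KO pair, and 9.50 and 9.53 in the RNA labelled G2KO. The WT of the G1KO pair was the low culture here, and the levels in the other 3 were all higher. Both probes were called higher in G1KO, with mean log2 ratios of 1.75 ± 0.03 (3.37-fold) and 1.50 ± 0.03 (2.83-fold). The probes parted in the RNA labelled G2KO, at -0.71 ± 0.04 for probe 1 and 0.02 ± 0.09 for probe 2, and neither was called.

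Fbln5 encodes fibulin-5, which tethers elastin to cells through integrins. Probe 1 read log2 levels of 8.01 in Cy3 and 8.18 in Cy5 in the WT of the G1KO pair, 7.07 and 6.86 in G1KO, 7.10 and 7.31 in the WT of the G2KO pair, and 6.85 and 6.69 in the RNA labelled G2KO. The WT of the G1KO pair was the high culture. The ratio in G1KO was -1.15 and -1.11, a mean of -1.13 ± 0.03, and the call was lost with median centring in place of loess (-0.80 and -1.39). In the RNA labelled G2KO it was -0.43 ± 0.03 and was not called. Probe 2, designed on a clone of the locus, was not well above background in any RNA.

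Eln, which encodes tropoelastin, the soluble precursor of the elastic core, was near background in all of these cultures. Its spots were well above background in 1 channel of the WT of the G1KO pair, 1 channel of the RNA labelled G2KO and no other. Mean log2 levels were between 6.22 and 6.31, and a difference in Eln was not detectable at this brightness.

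Fbn1 encodes fibrillin-1, the main scaffold protein of microfibrils. At probe 1 (chr2:124992432-124992491) the log2 level was 12.62 in Cy3 and 13.03 in Cy5 in the WT of the G1KO pair, 12.24 and 12.70 in G1KO, 13.55 and 13.79 in the WT of the G2KO pair, and 12.02 and 12.59 in the RNA labelled G2KO. The WT of the G2KO pair was highest in each dye. Its ratio in the RNA labelled G2KO was -0.96 and -1.77, a mean of -1.37 ± 0.57, and it was not called. At probe 2 (chr2:124992959-124993018) the ratio was -1.22 and -1.41, a mean of -1.31 ± 0.14, which was called lower but not with median centring (-0.48 and -1.97). The means of both probes were alike, and the call differed because the arrays of probe 1 lay further apart. In G1KO the means were -0.35 ± 0.62 and -0.38 ± 0.18, and neither probe was called.

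Fbn2 encodes fibrillin-2, which is prominent in embryonic microfibrils. Its log2 level was 8.44 in Cy3 and 8.60 in Cy5 in the WT of the G1KO pair, 10.57 and 10.64 in G1KO, 12.25 and 12.15 in the WT of the G2KO pair, and 8.75 and 9.18 in the RNA labelled G2KO. The order was thus the WT and the knockout of different pairs at the low end, then G1KO, then the WT of the G2KO pair. The ratio was 2.20 and 1.96 in G1KO, a mean of 2.08 ± 0.17 or 4.24-fold higher. In the RNA labelled G2KO it was -3.07 and -3.39, a mean of -3.23 ± 0.23 or 9.40-fold lower. A probe named AK053721, which the array describes as fibrillin 2 but which carries no member name, read 0.52 ± 0.14 and -0.99 ± 0.04 and was called in neither.

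Mfap4 encodes a microfibril-associated glycoprotein that binds elastin and fibrillin. Its probe lies at chr11:61304789-61304848. The log2 level was 6.36 in Cy3 and 6.17 in Cy5 in the WT of the G1KO pair, 7.36 and 7.36 in G1KO, 11.17 and 11.07 in the WT of the G2KO pair, and 8.24 and 8.26 in the RNA labelled G2KO. The WT of the G2KO pair stood far above the other 3 cultures, and the WT of the G1KO pair was well above background in 1 of 2 channels only. The ratio was 1.0 and 1.19 in G1KO, a mean of 1.09 ± 0.13, so it was just inside the call. Since 1 array of its WT was dim, the size of this ratio was uncertain, and it ranged from 1.0 to 3.19 over the processing alternatives. The ratio in the RNA labelled G2KO was -2.91 and -2.82, a mean of -2.87 ± 0.06 or 7.30-fold lower.

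Mfap5, which encodes MAGP-2, a small glycoprotein of microfibrils, was dim but tested in both pairs. The ratio was -0.88 and -0.99 in G1KO, a mean of -0.94 ± 0.08, just outside a call. It was called lower there with the scanner software's own ratio (-1.38 and -1.42), in the deposited series table (-1.38 and -1.43) and without background subtraction (-1.03 and -1.11). It was 0.01 ± 0.04 in the RNA labelled G2KO.

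**Figure D2:**
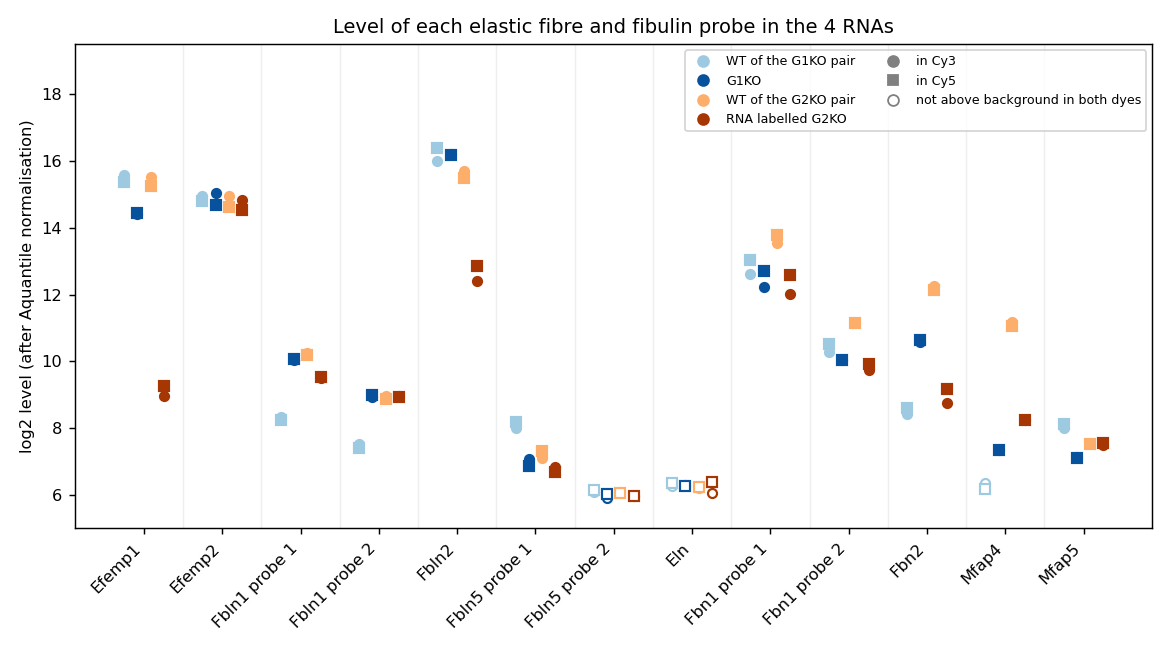
Log2 level of each of the 13 probes in the 4 RNAs, with circles for Cy3, squares for Cy5 and open symbols where an RNA was not well above background in both dyes. Levels are to be compared between RNAs for a probe, not between probes. Efemp1 and Fbln2 are low in the RNA labelled G2KO alone, while Fbn2 and Mfap4 are highest in the WT of the G2KO pair.

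The levels of the single channels allowed the cultures of both pairs to be set side by side, although each pair lay on its own 2 arrays, so that array and culture cannot be told apart. A difference was called where it reached 2-fold one way in both dyes. Between the WT cultures, 4 probes were higher in the WT of the G2KO pair and 0 lower, against 5.39% and 5.64% of all tested probes. These were Mfap4, by 4.85 ± 0.06 on the log2 scale, with the WT of the G1KO pair above background in 1 of 2 channels so that the size is uncertain, Fbn2, by 3.68 ± 0.19, and Fbln1, by 1.93 ± 0.01 at probe 1 and 1.46 ± 0.02 at probe 2. The same 3 genes were called higher in G1KO, a comparison that shares the WT of the G1KO pair with this one.

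Set against the WT of the G1KO pair, the RNA labelled G2KO gave 3 probes higher and 3 lower, where 4.73% and 7.02% of all tested probes were. Efemp1 (-6.37 ± 0.36) and Fbln2 (-3.56 ± 0.05) were lower against this WT as well, which reads the same knockout RNA by which the set was chosen and is a description, not a second test. Fbn2 was not lower, with a difference of 0.45 ± 0.18, and Mfap4 was higher, by 1.99 ± 0.14. For these genes the result thus depended on which WT culture was used. The size for Mfap4 is uncertain, since the WT of the G1KO pair was above background in only 1 channel. Fbln1 was higher at both probes (1.22 ± 0.07 and 1.49 ± 0.06), Fbln5 probe 1 was lower (-1.33 ± 0.24), and Fbn1 was not called (-0.52 ± 0.11 and -0.58 ± 0.04).

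**Figure D3:**
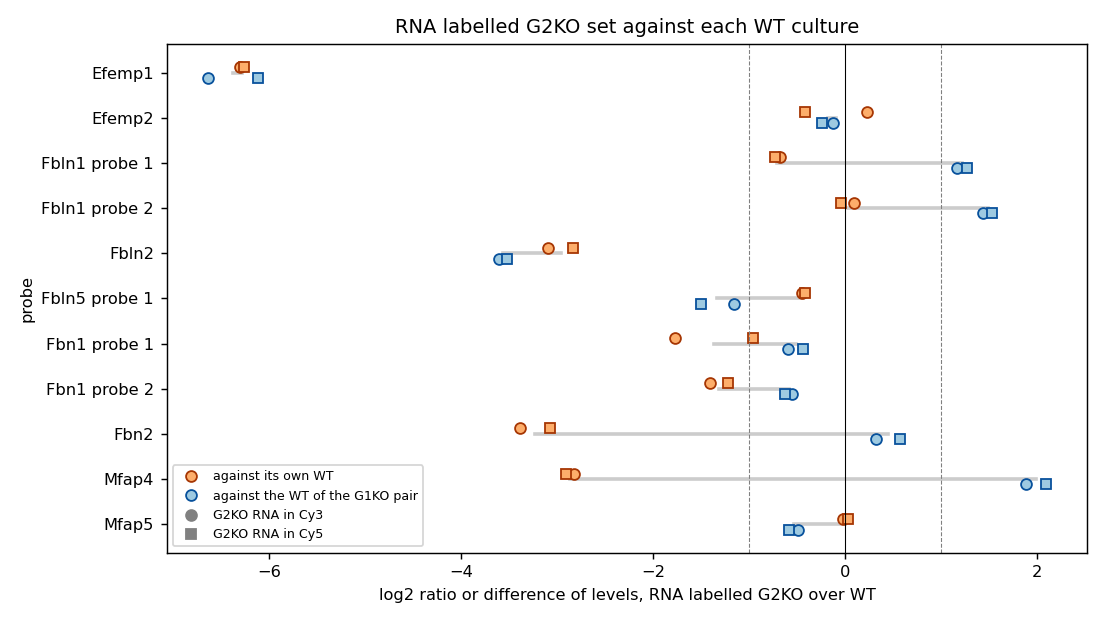
The RNA labelled G2KO set against its own WT (orange, log2 ratio on each array) and against the WT of the G1KO pair (blue, difference of log2 levels in each dye) for the 11 tested probes, with dashed lines at 2-fold and a grey line joining the means. Efemp1 and Fbln2 stay beyond -2 in both, while Mfap4 moves from -2.87 to 1.99 and Fbn2 from -3.23 to 0.45. The blue Mfap4 values are uncertain in size, since that WT was above background in only 1 channel.

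At the brightest tested probe of each gene, 9 members were read. Their median log2 ratio was -0.03 in G1KO, beside -0.00 over all 16591 tested genes. In the RNA labelled G2KO it was -1.37, beside -0.02 over all 16516. In G1KO, 3 members were called higher and 1 lower, where 2.46% and 4.47% of all tested genes were. At that probe 0 were called higher and 4 lower in the RNA labelled G2KO, where 2.72% and 4.83% of all tested genes were. The last median describes a set chosen in that contrast.

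A list of 41 other genes took in relatives of microfibril proteins and fibulins, enzymes, TGF-beta ligands and receptor genes, and not all encode parts of the fibre. They are called other elastic fibre genes here, and 39 were on the array. In G1KO 34 were tested, of which 4 were called higher and 6 lower, beside the same 2.46% and 4.47% of all tested genes, and their median log2 ratio was -0.12. In the RNA labelled G2KO 33 were tested, of which 2 were called higher and 9 lower, beside the same 2.72% and 4.83%, with a median of -0.20. The count in G1KO went from 10 to 5 with median centring in place of loess.

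Among the cross-linking enzymes, Lox, the lysyl oxidase that joins elastin chains, gave the lowest ratio of the list. It was -4.98 and -5.12 in the RNA labelled G2KO, a mean of -5.05 ± 0.10, and -1.58 ± 0.25 in G1KO. Lox was called lower in both. Loxl3, a relative of Lox, was called both ways, higher in G1KO (1.39 ± 0.08) but lower in the G2KO pair (-1.33 ± 0.07), while Loxl1, Loxl2 and Loxl4 were called in neither.

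Among the latent TGF-beta binding proteins, which share domains with the fibrillins, Ltbp2 was 1.96 ± 0.24 in G1KO, a call higher, and -3.39 ± 0.00 in the RNA labelled G2KO, a call lower. Ltbp4 was lower in G1KO (-1.12 ± 0.03) and was not called in the RNA labelled G2KO (0.57 ± 0.03). Ltbp1 and Ltbp3 were called in neither. Of the TGF-beta ligands, Tgfb3 was lower in the RNA labelled G2KO (-3.21 ± 0.01), and Tgfb1 and Tgfb2 were called in neither.

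Among the relatives of microfibril proteins and fibulins, 4 of 10 tested genes were called lower in the RNA labelled G2KO and 1 higher, where 4.83% and 2.72% of all tested genes were. Of 5 tested ADAMTS and 3 tested elastin receptor genes 0 were called lower there, too few genes to set apart from the 4.83%. Mfap2, which encodes MAGP-1, was lower at -3.10 ± 0.07 and at -1.21 by its other probe. Emilin2 (-2.26 ± 0.22) and Emilin1 (-1.22 ± 0.12), glycoproteins at the elastin and microfibril interface, were lower too. Hmcn1, or fibulin-6, was at least 2.56-fold lower, being dim there on both arrays, and its other probe gave -0.69 and was not called. Mfap3l was higher by 1.22 ± 0.21, but its other probes gave 0.88 and 0.66 and were not called. In G1KO, Hmcn1 (-1.59 ± 0.38) and Mmrn1 (-1.86 ± 0.00) were lower, the latter with the G1KO RNA above background on 1 of 2 arrays.

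In the ADAMTS family of microfibril regulators, Thsd4 was lower in G1KO (-1.60 ± 0.03, with its other probe at -0.39) and higher in the RNA labelled G2KO (1.33 ± 0.05). Adamtsl3 was higher in G1KO at 1.37 ± 0.27, with its WT above background on 1 of 2 arrays and its other probe at 0.18. Of the enzymes that degrade elastin and their inhibitors, Mmp2, a gelatinase, was lower in the RNA labelled G2KO (-3.38 ± 0.17). Ctsk, or cathepsin K, was higher (1.42 ± 0.24) and Timp3, an inhibitor of metalloproteinases, lower (-2.27 ± 0.03) in G1KO. The elastin receptor genes Glb1, Neu1 and Ctsa were called in neither.

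**Figure D4:**
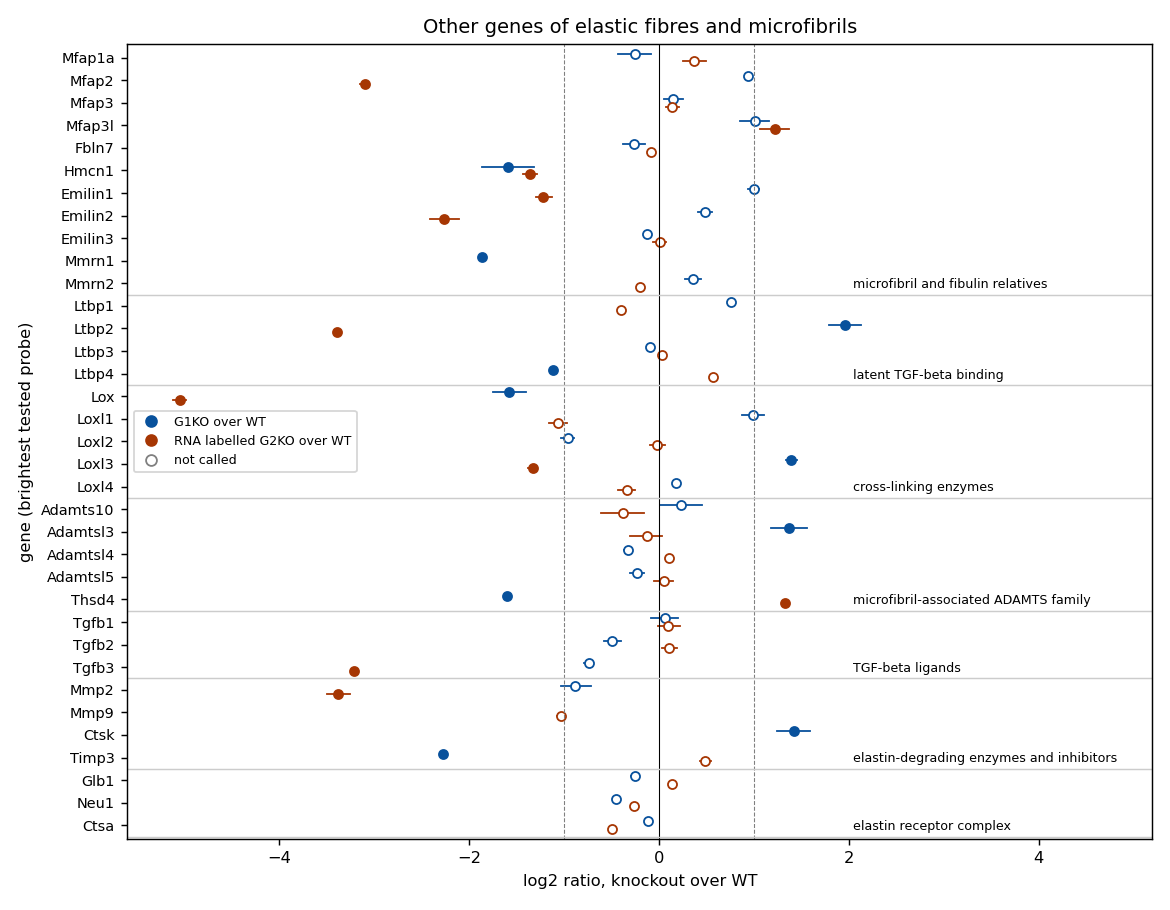
Log2 ratio of knockout over WT at the brightest tested probe of each other elastic fibre gene, grouped by role, with filled points for calls, lines between both arrays and dashed lines at 2-fold. Lox lies lowest at -5.05 in the RNA labelled G2KO, and Ltbp2 and Loxl3 lie above 0 in G1KO and below 0 in the RNA labelled G2KO. The Hmcn1 and Mmp9 points of the RNA labelled G2KO are the measured ratios of probes that were dim there.

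The 5 other genes whose ratios on the 4 arrays lay nearest to those of Efemp1, by Euclidean distance among 24150 probes tested in both comparisons, were Cdkn2b, Lox, Ptgs1, Tm4sf1 and Slit3. Their distances ran from 1.78 to 2.64 on the log2 scale. Cdkn2b, an inhibitor of cyclin D kinases, read -1.34 ± 0.10 for G1KO and -5.06 ± 0.15 for the RNA labelled G2KO. Ptgs1, a cyclooxygenase, read -0.02 ± 0.24 and -4.86 ± 0.04, and Tm4sf1, a membrane protein, -0.11 ± 0.60 and -4.85 ± 0.34. Slit3, a secreted guidance protein, read -0.80 ± 0.07 and -4.43 ± 0.11, with a second probe at -0.23 and -2.70. All 5 were less reduced than Efemp1 in the RNA labelled G2KO, and Lox was the elastic fibre gene among them.

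Some markers of cell types also differed between knockout and WT. All 12 fibroblast markers were on the array and well above background in 3 of the 4 RNAs, and in the RNA labelled G2KO 11 were, without Fap. In that RNA 6 of the 12 were called lower and 0 higher, where 4.83% and 2.72% of all tested genes were. The median of the 12 was -1.13. Among those called lower were Pdgfra (-4.63 ± 0.09), Thy1 (-3.22 ± 0.18) and Col3a1 (-2.90 ± 0.14). Their other probes gave -0.59 for Pdgfra, which was not called, -3.28 for Thy1, and -1.25 and -0.27 for Col3a1. Their summed level on the linear scale was 203917 in Cy3 and 280946 in Cy5, against 665920 and 584181 in its WT. In G1KO 3 were called higher and 1 lower, where 2.46% and 4.47% of all tested genes were. The median there was -0.01, and summed levels were 339270 and 384133 against 440341 and 474394 in the WT of that pair. The share that fibroblast content had in the elastic fibre ratios was not tested, and fewer cells of a type and less RNA per cell cannot be told apart in such bulk RNA.

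Other lists differed between the cultures as well. Of 7 mesothelial markers all were above background in the G1KO pair. Summed levels were 241176 and 200818 in its WT and 25509 and 31253 in G1KO. In G1KO 6 were called lower and 1, Krt19, higher, where 4.47% and 2.46% of all tested genes were. In the G2KO pair 2 of the 7 were above background, and Wt1, Upk3b, Upk1b, Lrrn4 and Krt8 were not. Summed neural and glial markers were 22204 and 22452 in the RNA labelled G2KO against 2590 and 2962 in its WT, with Sox2 (5.59 ± 0.35) and Nes (3.37 ± 0.23) higher. Smooth muscle markers summed to between 203029 and 295977 in all RNAs. In G1KO 2 of 5 tested, Cnn1 (1.57 ± 0.01) and Myh11 (1.03 ± 0.00), were called higher, where 2.46% of all tested genes were. The median of the 5 was 0.48. Cartilage markers summed to 1789 and 1754 in the RNA labelled G2KO against 7354 and 7216 in its WT. Sox9 (-3.08 ± 0.12) and Col2a1 (-1.50 ± 0.02) were called lower there, whereas Acan (-0.13 ± 0.01) and Matn3 (0.59 ± 0.03) were not called. Other probes gave -0.50 and -2.71 for Sox9 and 0.63 for Col2a1. Epithelial markers summed to 32758 and 32969 in the WT of the G1KO pair and 31496 and 30875 in G1KO, where Krt18 and Cdh1 were above background, but to 298 and 317 in the WT of the G2KO pair and 291 and 272 in the RNA labelled G2KO. Of 2 endothelial genes tested in G1KO, Emcn was called lower (-2.65 ± 0.08), where 4.47% of all tested genes were. The other, Kdr, was not called (0.06 ± 0.06). Pecam1, Cdh5, Epcam, Cldn4, Ptprc and Aif1, which mark endothelial cells, epithelia and macrophages, were not above background in any RNA. The part of these cell types in the ratios of the elastic fibre genes was not tested.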

How the data were processed

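RNA of 4 MEF cultures was hybridised to 4 Agilent whole mouse genome arrays, all on 1 slide in 1 scan. Samples were grouped by the labelled genotypes. The authors read the arrays with Agilent Feature Extraction (10.5.1.1 per the file headers, 9.1 per the submitters' processing notes). In the deposited scanner files each spot has a linear intensity in both channels, without normalisation. They also give a log10 ratio (Cy5 to Cy3) made by the software, its p-value within an array, which was not used, and flags for outlying and dim spots. The deposited series table holds the same log10 ratio turned to knockout over WT (r = 0.999999 with the scanner ratio, -0.999999 on swapped arrays), with a median of 0 in each column.

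Intensities were background-corrected by normexp with an offset of 50 and normalised by loess in limma 3.58.1 (R 4.3.3), with control and outlier spots given no weight. Control spots and outlier spots (117, 203, 129 and 114 per array) were then left out. Spots of a probe were averaged, ratios were turned to knockout over WT, and both arrays were averaged. Levels of single channels came from Aquantile normalisation. A bound is given where a genotype was dim on both arrays, against the lowest signal well above background, and is open to dye bias. With 1 replicate per genotype no statistical test between genotypes was run. The number of arrays limits the precision. The normalisation and the call rule, without the filter on dim probes, were tested on a simulated dye-swap pair.

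Probes were matched to RefSeq (GRCm38.p6) names, 24375 of them through accessions, 6301 through current and 2426 through older symbols, and 8072 kept the name in the files. Probe positions are on build mm8, as the files give them, and the exon or untranslated region they lie in was not analysed here. Promoters came from the RefSeq table, which had entries for 6 of the 10 genes. Eln, Fbn2, Mfap4 and Mfap5 had none.

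The members, lists and rules were chosen with earlier results of these data known. The genes named were all members, the list genes called at their brightest tested probe, Ccng1, Ccng2, Xist, Y-linked genes, the marker lists and the 5 genes nearest to Efemp1. Alternatives were the scanner's ratio, the series table, no background subtraction, median centring, other filters, a 4-fold threshold, the median over a gene's probes, quantile normalisation of levels and each array or dye alone.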

Additional observations from a re-analysis of the deposited data

Results flagged for a closer look

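Some genes had ratios above 0 on both arrays of one comparison and below 0 on both arrays of the other, and the difference between the comparisons was not tested. As the log2 ratio in G1KO minus that in the RNA labelled G2KO, it was 2.46 for Fbln1 at probe 1, 5.32 for Fbn2, 3.96 for Mfap4, 5.35 for Ltbp2, 2.72 for Loxl3 and -2.93 for Thsd4. Fbln1 probe 1 was not called in the RNA labelled G2KO, and its second probe gave no such pattern. The Mfap4 difference rests on a WT culture of the G1KO pair that was dim on 1 of 2 arrays, and it was 6.34 with the scanner software's own ratio. For Fbn2, Mfap4 and Fbln1 the WT cultures of both pairs differed as well, as given above. The genes listed here are not all that had opposite signs in this way. Others in G1KO and the RNA labelled G2KO included Mfap2 (0.94 and -3.10), Emilin2 (0.49 and -2.26) and Timp3 (-2.27 and 0.49).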

How the results depend on the processing

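With a 4-fold threshold, the number of member probes called in G1KO went from 5 to 0, of other elastic fibre genes from 10 to 1 in G1KO and from 11 to 6 in the RNA labelled G2KO, and of member probes differing between the WT cultures from 4 to 2 and between the RNA labelled G2KO and the WT of the G1KO pair from 6 to 2. This follows from the threshold. With median centring in place of loess, the other elastic fibre genes called in G1KO went from 10 to 5, and the cause was not tested. The other counts of calls stayed within 1.5 times their value. The member median ranged from -0.19 to 0.09 in G1KO and from -1.77 to -0.96 in the RNA labelled G2KO. Over the alternatives of background correction and normalisation, 37 of 88 values of single member probes moved by more than the SD between arrays, and 0 of the called ones changed sign under any alternative. Filters and single arrays are left out of this count, because there a value could not move so far. Mfap4 was not called in G1KO where both genotypes had to be above background. On single arrays, Efemp1 was lower in G1KO by its array with knockout RNA in Cy5, and Fbn1 probe 1 in the RNA labelled G2KO by that in Cy3. A block for slide or scan was not run, since all arrays shared both. No paired analysis was possible because each group had 1 culture per genotype. Probes near background, such as Eln, Mfap4 in the WT of the G1KO pair and Fbln5, limit what can be read.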
